A study of Homo sapiens with 24 samples.

Results

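The genes described here are 49 human genes of DNA replication and S-phase entry. They were chosen by symbol from general knowledge of their function, but with earlier results of these data known. Their symbols were matched to the Ensembl gene IDs of GENCODE 29. They make up 49 of the 58721 genes counted in the series. Their RNA was measured by RNA-seq in 24 libraries of 2 established cell lines, in 8 groups of 3 libraries that the series calls biological replicates. LN-229, a glioblastoma line labelled wild type, gave 15 libraries in 5 groups. Control siRNA was used in the groups siControl and siControl_2, ZFX was knocked down in siZFX, ZNF593 was knocked down in siZNF593, and both were in siZFX siZNF593, called the double knockdown here. The other 9 libraries came from 293T embryonic kidney cells whose genotype is a knockout of both ZFX and ZNF711 in all 3 of their groups (DKO cells). DKO cells received the empty vector pCMV6, wild-type ZFX with a FLAG tag (wtZFX), or a FLAG-tagged ZFX construct named ZFX12_13, whose change the labels do not spell out. ZFX is a zinc finger transcription activator of the X chromosome, ZNF711 is a close relative of it, and ZNF593 belongs to a different family of zinc finger proteins. The time after transfection, the siRNA sequences and whether the DKO cells are 1 clone are not given in the sources used here.

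Before S phase, the origin recognition complex (ORC) with CDC6 and CDT1 loads the MCM2-7 helicase onto DNA, a step called licensing, and geminin (GMNN) blocks CDT1 afterwards. The kinase pair CDC7-DBF4, cyclin E with its kinase, and TICRR then let CDC45 and the GINS complex join the helicase, after which the fork polymerases, the PCNA clamp and its RFC loader copy the DNA while CAF-1 places new histones. Most of these genes are known targets of the E2F transcription factors, which the retinoblastoma protein restrains, and their RNA is higher in cycling cells than in resting ones.

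All 49 genes had enough counts to be tested in both lines, with 73 to 14264 counts per gene and library. Gene counts per library ran from 16223239 to 30159260. Levels are CPM, gene counts divided by the library total after trimmed-mean (TMM) scaling and set to a common depth. A change is a log2 fold change with its standard error (SE), and a gene is called higher or lower where edgeR's quasi-likelihood test gives a Benjamini-Hochberg adjusted p under 0.05 over all genes of that line, 17684 in LN-229 and 19376 in DKO cells. All adjusted p-values below come from that test.

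The targeted genes were checked first, on plain library totals. ZFX stood at 49.6 ± 4.22 CPM in siControl and 52.0 ± 4.89 in siControl_2 (SD, n = 3 in every group), against 15.7 ± 3.58 with siZFX, 56.5 ± 4.46 with siZNF593 and 27.5 ± 2.48 with both siRNAs, so less ZFX RNA was lost in the double knockdown than with siZFX alone. ZNF593 has no counts without regard to strand. Over both stranded counts it went from 34.04 ± 2.58 CPM to 2.34 ± 0.689 with siZNF593, and from 34.9 ± 3.18 in siControl_2 to 3.21 ± 0.480 in the double knockdown. In DKO cells ZFX stood at 226.9 ± 10.8 CPM with pCMV6, and ZNF711 at 310.2 ± 5.36, so RNA was still made from both edited genes and does not check the knockout. ZFX stood at 15430.1 ± 1202 with wtZFX and 18637 ± 3034 with ZFX12_13. LN-229 libraries held VIM at 1238 CPM, NES at 1085 and the glial-lineage gene SOX10 at 1275 in siControl, but the astrocyte marker GFAP at 2.62, and DKO cells held the embryonic gene LIN28B at 102.4 CPM and the kidney gene PAX2 at 2.08 with pCMV6. Leukocyte, endothelial and hepatocyte markers (PTPRC, CD3E, PECAM1, VWF, ALB) stayed under 1 CPM in siControl and in pCMV6. Replicates correlated at 0.970 to 0.994 in log2 CPM, lowest within the double knockdown, whose replicate 3 lay apart in several genes below.

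Counting without strand leaves reads in a shared exon uncounted, and 20 of the 49 genes share exon bases with another gene. For 9 of them both stranded counts summed to more than 1.25 times the count used. The ratio was 13.4 for TYMS, which overlaps ENOSF1 and TYMSOS, 3.24 for CCNE2 (INTS8) and 1.97 for GINS4, so values of genes with such a ratio are uncertain. The fit was repeated with, for each gene, the larger of the count used and the sum of both stranded counts. In shared exons that sum also takes in reads of a neighbour on the opposite strand, so its changes cannot be assigned to the named gene alone. With that larger count, TYMS was also called lower in the double knockdown, at -0.31 (SE 0.07, adjusted p = 0.000795), and CCNE2 was called higher, at 0.33 (SE 0.10, adjusted p = 0.0137). MCM2 there went from -0.52 to -0.34 and kept its call. Calls near the threshold moved too, and with that count 35 calls of 20 genes over the 10 comparisons were gained or lost.

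In the control groups the most abundant of these RNAs per kilobase of exon was PCNA, the sliding clamp, at 360.2 ± 15.9 CPM per kb in siControl and 161 ± 2.32 in DKO cells with pCMV6 (SD, n = 3). Next came the helicase subunits MCM7 at 151 ± 1.34 and MCM5 at 112 ± 3.00 in siControl, and MCM4 at 115 ± 1.40 and MCM7 at 106 ± 1.58 in DKO cells. The lowest were CCNE2 at 3.87 ± 0.56, on a count that leaves out reads in shared exons, the polymerase epsilon subunit POLE2 at 4.76 ± 0.20 and the CAF-1 subunit CHAF1B at 5.45 ± 0.28 in siControl. Neighbours in this order mostly overlap within their spread, for example FEN1 at 99.7 ± 5.89 and MCM3 at 101 ± 3.05. Between the lines, 29 of the 49 genes were higher in DKO cells with no overlap of libraries, 16 were lower and 4 overlapped. Of all tested genes 45.1% were higher and 38.2% lower without overlap, so such gaps are common between the lines. The median log2 difference was 0.25 against 0.13 over all tested genes. Cell line, knockout and transfection cannot be told apart in it. POLA1 and POLE2, subunits of 2 replicative polymerases, were the most in favour of DKO cells at 1.59 and 1.58 on the log2 scale, while the ribonucleotide reductase subunit RRM2, at -1.33, TYMS, at -1.24 on its uncertain count, and PCNA, at -1.16, were the most in favour of LN-229.

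**Figure D1:**
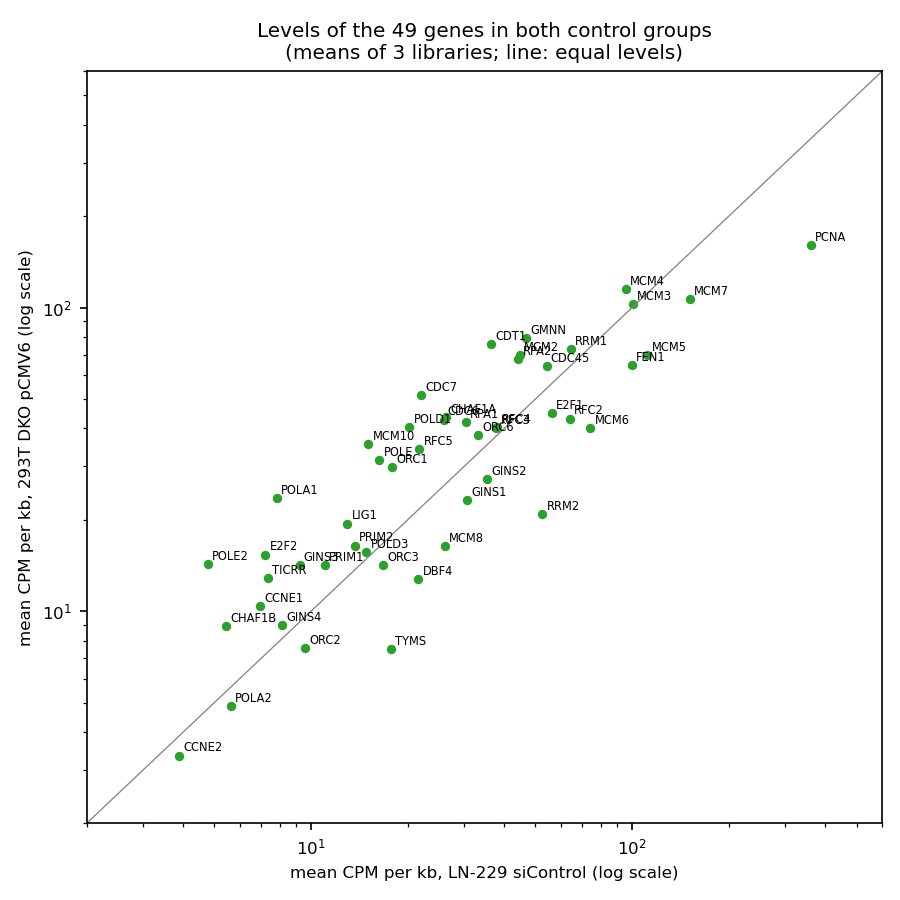
Mean level of each of the 49 genes, in TMM-scaled CPM per kilobase of exon on log axes, in LN-229 with siControl (x axis) and in DKO cells with pCMV6 (y axis), each point the mean of 3 libraries. PCNA is the highest on both axes, and POLA1 and POLE2 lie farthest above the line of equal levels.

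Promoter windows from RefSeq (GRCh38.p14), from 250 bases before to 50 after the annotated start, were found for 43 of the 49 genes. E2F sites were searched as TTTCGCGC, TTTGGCGC, TTTCCCGC and TTTGCCGC on both strands, where matches on opposite strands can overlap. At least 1 match was present in 21 of 43 windows (48.8%), against 3.31% of all 35116 promoters of that length and 4.1% of the 22199 of protein-coding genes. A CCAAT box (CCAAT, both strands) was in 55.8% of the windows against 34.6% of all promoters and 34.7% of the protein-coding ones. A GC box (GGGCGG, both strands) was in 72.1% against 45.0% of all promoters and 56.3% of those of protein-coding genes. AGGCCT, the core of the motif known for ZFX, was in 3 of 43 windows (6.98%) against 10.9% of all and 10.8% of protein-coding promoters, and the longer AGGCCTAG or AGGCCTGG was in 1 (2.33%) against 4.12% and 4.15%. The windows with an E2F match had a median log2 change of -0.26 with siZFX, -0.57 with siZNF593 and -0.20 in the double knockdown, and the 22 without had -0.22, -0.38 and -0.08. With wtZFX the medians were -0.13 with a match and -0.18 without, and with ZFX12_13 -0.18 and -0.12. Between the control sets they were -0.15 and -0.16. A link between matches and changes was not tested. A match describes letters in a window, not a bound site.

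Shown here are 150 bases, from 130 before to 20 after the start, of 7 promoters whose genes carry most of the results below. In the first 5 the E2F matches within the stretch are in capitals. RFC3, E2F2 and MCM7 fell with each knockdown, GINS1 fell with siZNF593 and in the double knockdown, and E2F1 differed most between the ZFX constructs. They lie at chr13:33818019-33818168 (plus strand) for RFC3, chr1:23531214-23531363 (minus strand) for E2F2, chr7:100101378-100101527 (minus strand) for MCM7, chr20:25407543-25407692 (plus strand) for GINS1 and chr20:33686366-33686515 (minus strand) for E2F1.
RFC3: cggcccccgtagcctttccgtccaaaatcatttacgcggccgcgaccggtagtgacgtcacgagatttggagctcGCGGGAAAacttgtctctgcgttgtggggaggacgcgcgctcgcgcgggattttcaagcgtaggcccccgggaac
E2F2: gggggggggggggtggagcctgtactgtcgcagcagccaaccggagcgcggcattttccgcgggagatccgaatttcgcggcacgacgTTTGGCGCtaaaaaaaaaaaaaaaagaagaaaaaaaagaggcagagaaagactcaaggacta
MCM7: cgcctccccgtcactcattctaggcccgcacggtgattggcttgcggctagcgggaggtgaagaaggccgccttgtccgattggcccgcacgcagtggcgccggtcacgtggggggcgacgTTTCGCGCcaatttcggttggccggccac
GINS1: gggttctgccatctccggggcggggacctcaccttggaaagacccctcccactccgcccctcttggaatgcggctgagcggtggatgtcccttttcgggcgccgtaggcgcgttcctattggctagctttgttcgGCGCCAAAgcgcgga
E2F1: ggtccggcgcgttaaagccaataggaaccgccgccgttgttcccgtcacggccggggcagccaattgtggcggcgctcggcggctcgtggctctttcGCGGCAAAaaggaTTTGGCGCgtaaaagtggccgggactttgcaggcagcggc

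CHAF1B and CCNE1, which fell with siZFX and rose with wtZFX, had no E2F match by these letters and no CCAAT box in their whole windows. Their GC boxes are in capitals here, and they lie at chr21:36385262-36385411 (plus strand) and chr19:29811861-29812010 (plus strand).
CHAF1B: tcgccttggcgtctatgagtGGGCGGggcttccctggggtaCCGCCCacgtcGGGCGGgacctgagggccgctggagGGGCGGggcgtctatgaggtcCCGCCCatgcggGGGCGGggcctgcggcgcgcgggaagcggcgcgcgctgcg
CCNE1: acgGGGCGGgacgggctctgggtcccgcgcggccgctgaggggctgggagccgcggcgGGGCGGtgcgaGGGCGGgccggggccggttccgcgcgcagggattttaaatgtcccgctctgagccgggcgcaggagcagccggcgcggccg

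With siZFX, 24 of the 49 genes were lower and 3 higher than in siControl, against 17.1% and 13.8% of all genes tested. The median log2 change was -0.23 over the 49 genes and 0.02 over all genes. With siZNF593, 37 were lower and 1 higher, against 14.6% and 12.2%, with a median of -0.52 (0.02 over all genes). Both comparisons use the same siControl libraries. Against all 6 control libraries together, 19 were lower and 6 higher with siZFX, and the median was -0.13. For siZNF593 these were 33 lower and 1 higher, with a median of -0.42. In the double knockdown against siControl_2, 22 were lower and 5 higher, against 20.6% and 17.6%, with a median of -0.18 (0.01 over all genes). In DKO cells 30 were lower and 5 higher with wtZFX, against 19.2% and 23.2%, and 25 were lower and 3 higher with ZFX12_13, against 15.7% and 20.9%. Without double-knockdown replicate 3, 23 were lower and 5 higher there, and the median was -0.18. Its calls of LIG1, MCM3, MCM6, MCM10, PCNA and RFC2 are weak, each ended by leaving out any of 2 to 5 of the 6 libraries, one at a time. The medians in DKO cells were -0.18 and -0.15, against -0.02 and -0.01 over all genes, and both use the same pCMV6 libraries. The genes thus went down in a larger share than all genes after a knockdown of ZFX and also after ZFX was added to DKO cells. In RNA of whole cultures, fewer cells in S phase and less of these RNAs per cell cannot be told apart.

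Most changes were small. Calls of at least 1.5-fold downward held 7 genes with siZFX, 19 with siZNF593 and 9 in the double knockdown, against 9.06%, 5.55% and 11.2% of all genes. Upward calls of that size numbered 0, 0 and 3 in the same order. In DKO cells 1 gene rose by at least 1.5-fold with wtZFX and 1 with ZFX12_13, CCNE1 in both, against 11.3% and 9.99% of all genes. There 1 gene fell by at least 1.5-fold with each construct, ORC1 in both, at -0.67 and -0.60 on the log2 scale. The 5th percentile of all genes was -0.59 with wtZFX and -0.53 with ZFX12_13. With siZNF593 the downward share of the 49 genes lay well above that of all genes, and with siZFX and in the double knockdown it lay closer to it. The split of calls shifted with the scaling in the double knockdown, to 16 lower and 9 higher with upper-quartile factors, and in ZFX12_13, to 27 lower and 10 higher with offsets for GC content and length.

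The library values show the same ordering. The 49 RNAs summed to 5215 to 5358 CPM in siControl, 4448 to 4542 with siZFX, 3459 to 3626 with siZNF593, 4700.0 to 4883 in siControl_2 and 4034 to 4252 in the double knockdown. No library of a knockdown group reached its own control set. In DKO cells the sum was 7601 to 7695 with pCMV6, 6870.2 to 6935 with wtZFX and 6777 to 7074 with ZFX12_13.

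The 2 control sets differed too, although both carry the same treatment label. Against siControl, 9 of the 49 genes were lower in siControl_2 and 0 higher by edgeR, with shares of all genes of 4.88% and 5.43%, and the median log2 change was -0.16. At an unadjusted p under 0.05, 21 were lower and 0 higher, against 11.3% and 11.4% of all genes. DESeq2 called 9 lower and 0 higher, against 5.65% and 6.55%. With siControl in place of siControl_2, the double knockdown had 30 genes lower and 4 higher and a median of -0.37. The 9 genes were PRIM1 at -0.53, TYMS at -0.46, GINS3 at -0.39, RRM2 at -0.35, CDC7 at -0.34, E2F1 at -0.27, MCM10 at -0.27, MCM3 at -0.24 and GINS2 at -0.23 on the log2 scale. For 18 of the 49 genes the control sets differed by at least as much as the double knockdown did from siControl_2, among them ORC1 at -0.22 and ORC6 at -0.28, neither called. Values of the double knockdown are given against siControl_2 unless stated.

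**Figure D2:**
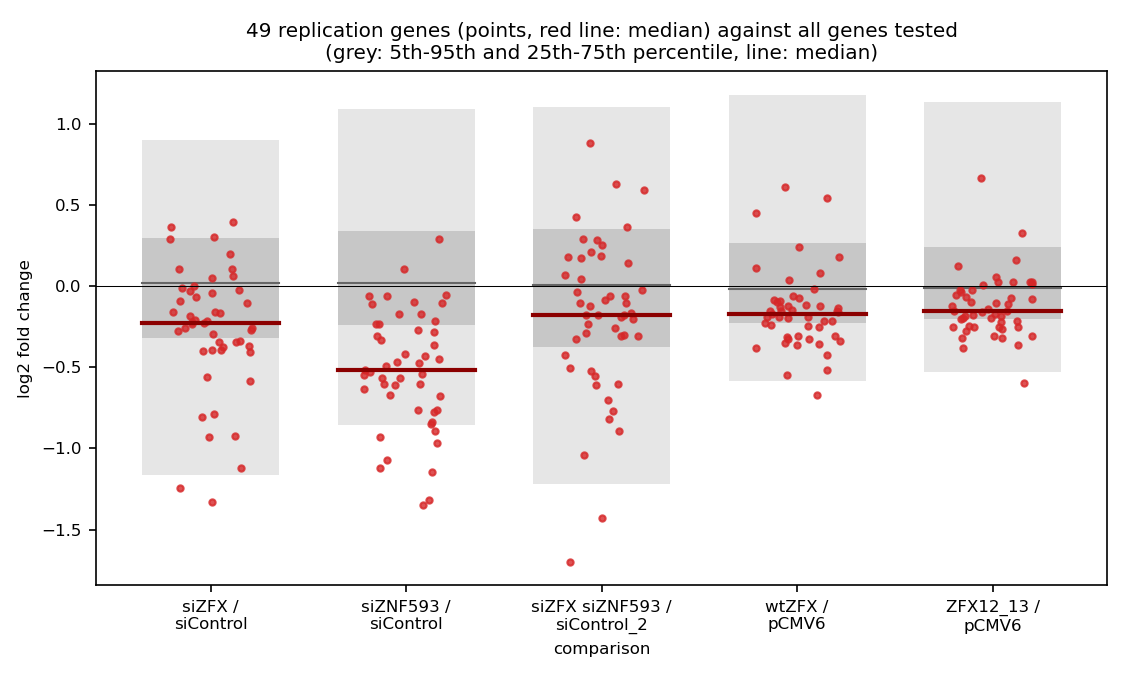
Log2 fold change of the 49 genes (points, red line their median) in 5 comparisons, over the range of all genes tested (light grey 5th to 95th percentile, dark grey 25th to 75th, thin line median). The red median lies below the grey one in each, from -0.52 with siZNF593 to -0.15 with ZFX12_13.

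**Figure D3:**
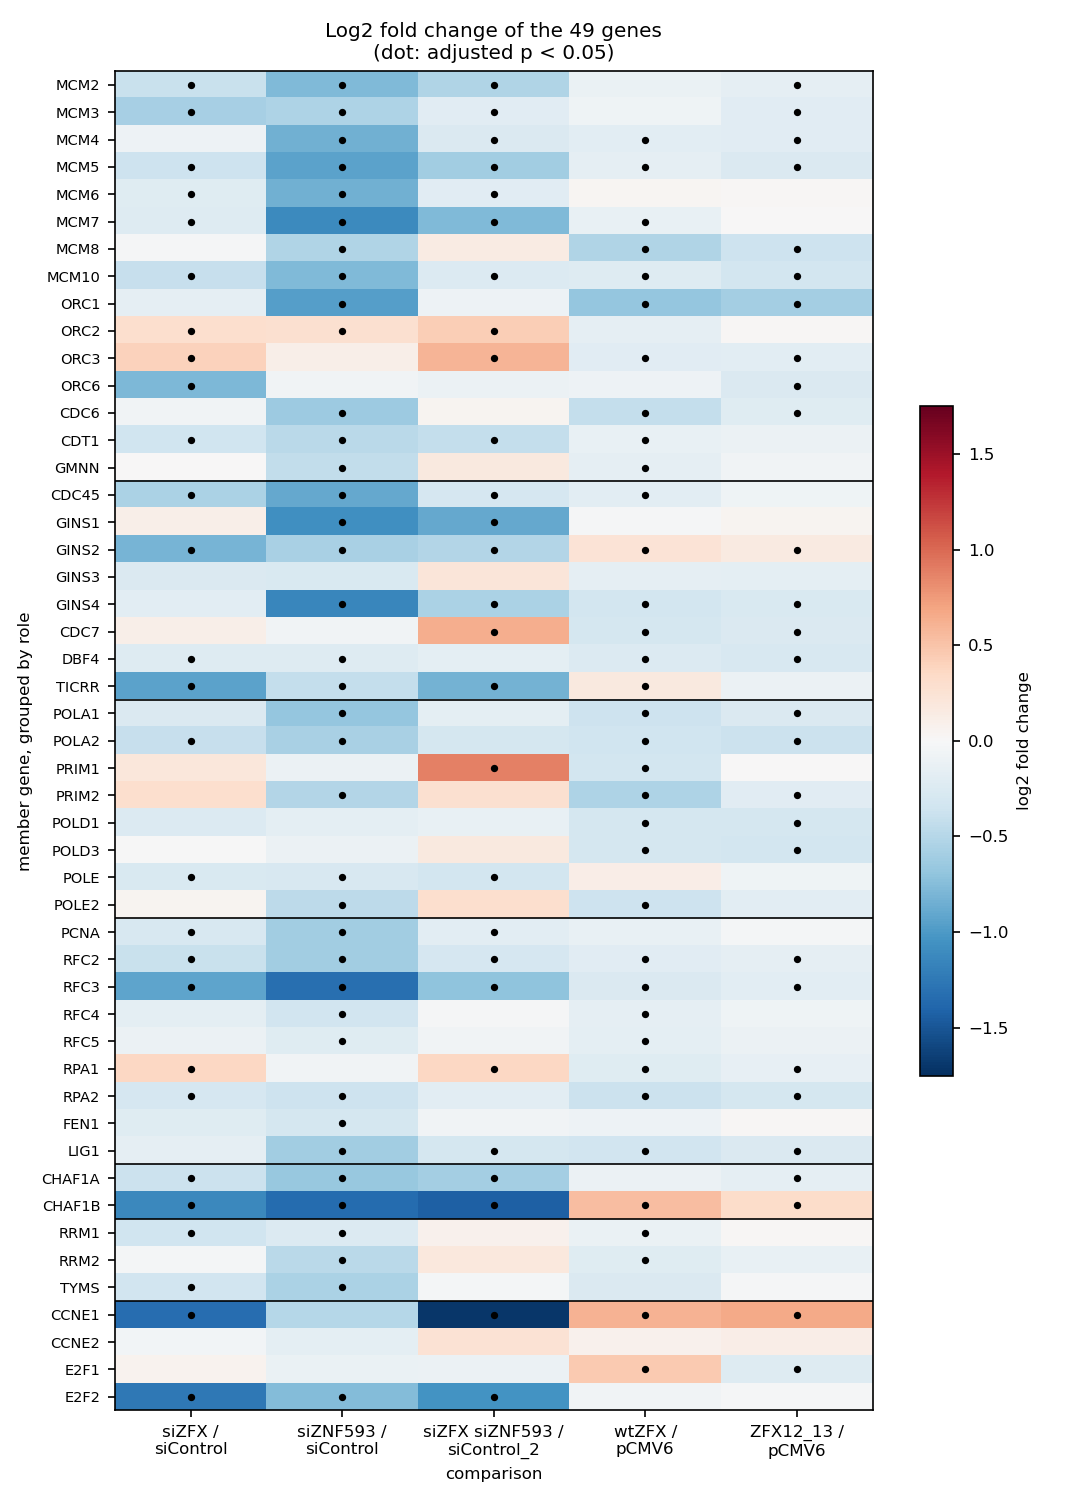
Log2 fold change of each gene (rows, grouped by role) in 5 comparisons (columns), blue lower and red higher, with a dot where the adjusted p is under 0.05. The siZNF593 column is blue for 47 of 49 genes, and CHAF1B and CCNE1 are blue in the siZFX and double-knockdown columns and red in both columns of DKO cells.

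Licensing genes were lower in 12 of 15 cases with siZNF593, 8 with siZFX and 8 in the double knockdown. The shares of all genes were 14.6%, 17.1% and 20.6%. MCM7, a helicase subunit and the most abundant of them in LN-229, stood at 486, 490.3 and 481 CPM in the siControl libraries, 414, 428 and 406 with siZFX and 234, 216 and 222 with siZNF593. In siControl_2 it stood at 481, 432 and 449 and in the double knockdown at 275, 281 and 242. Every siZNF593 and double-knockdown library was thus well under every control library, and the siZFX libraries lay just under siControl. The log2 changes were -0.23 (SE 0.07, adjusted p = 0.0111) with siZFX, -1.12 (SE 0.07, adjusted p = 1.58e-11) with siZNF593 and -0.77 (SE 0.07, adjusted p = 5.41e-09) in the double knockdown.

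The other subunits of the MCM2-7 ring followed, to different degrees. MCM4 had 373, 360.4 and 359 CPM in siControl, 339, 346 and 343 with siZFX and 202, 204 and 202 with siZNF593, a change of -0.09 (SE 0.06, adjusted p = 0.268) with siZFX and -0.85 (SE 0.06, adjusted p = 1.6e-10) with siZNF593. MCM5 had 340.4, 358 and 341 CPM in siControl, 267, 278 and 261 with siZFX and 188, 168 and 189.7 with siZNF593. It fell in all 3 knockdowns, with log2 changes of -0.37, -0.93 and -0.61. MCM3 fell with siZFX, -0.58 (SE 0.07, adjusted p = 6.73e-07), and with siZNF593, -0.54 (SE 0.07, adjusted p = 2.27e-06), and the difference between them was -0.04 (SE 0.07, adjusted p = 0.692). MCM2 fell with log2 changes of -0.39, -0.78 and -0.52 and MCM6 with log2 changes of -0.21, -0.84 and -0.20 in the same order. The siZFX call of MCM6 is weak: leaving out any 1 of the 6 libraries ended it, as did the larger count (adjusted p = 0.0784). Summed over the 6 subunits, the libraries held 1850.1 to 1885 CPM in siControl, 1491 to 1589 with siZFX, 1013 to 1030 with siZNF593, 1655 to 1759 in siControl_2 and 1241 to 1256 in the double knockdown.

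Among the loaders, ORC subunits went apart. ORC1, the subunit whose level follows the cell cycle, stood at 50.4, 48.5 and 50.1 CPM in siControl, 43.0, 44.6 and 45.8 with siZFX and 25, 28.0 and 23.0 with siZNF593. Its change was -0.16 (SE 0.09, adjusted p = 0.178) with siZFX but -0.97 (SE 0.09, adjusted p = 1.73e-08) with siZNF593, and -0.09 (SE 0.09, adjusted p = 0.461) in the double knockdown. ORC6, the smallest subunit, did the reverse: it stood at 54.8, 52.9 and 52.3 CPM in siControl, 30.7, 31.1 and 31.1 with siZFX and 50.5, 55.5 and 47.5 with siZNF593. It fell with siZFX, -0.79 (SE 0.10, adjusted p = 1.65e-06), and its change was -0.06 (SE 0.10, adjusted p = 0.704) with siZNF593 and -0.11 (SE 0.10, adjusted p = 0.425) in the double knockdown. Without double-knockdown replicate 3 the last value was -0.25 (adjusted p = 0.0162). With siControl as the control, the double-knockdown changes of ORC1 and ORC6 were -0.31 (adjusted p = 0.00621) and -0.39 (adjusted p = 0.00273), so both depend on the control set. The siZFX libraries lay clear of all others for ORC6 and the siZNF593 libraries for ORC1. ORC2 and ORC3, core subunits, rose against the rest of the class. ORC3 went from 38.0, 38.1 and 37.4 CPM in siControl to 49.6, 50.3 and 49.7 with siZFX, 0.40 (SE 0.10, adjusted p = 0.00481), and from 37.8, 39.3 and 38.1 in siControl_2 to 52.2, 49.9 and 71.2 in the double knockdown, 0.59 (SE 0.10, adjusted p = 9.07e-05). Without the third double-knockdown library, the highest, the rise was 0.42. ORC2 rose by 0.29 with siZFX, 0.29 with siZNF593 and 0.43 in the double knockdown. The calls with single siRNAs were weak: 5 and 7 of 16 alternative settings ended them.

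The loading factor CDC6 fell with siZNF593 from 109, 110.5 and 109 CPM to 67.9, 74.7 and 68.6, -0.64 (SE 0.07, adjusted p = 4.85e-07), and its change with siZFX was -0.07 (SE 0.07, adjusted p = 0.55). CDT1 fell with each knockdown, at -0.35, -0.47 and -0.42 on the log2 scale, the last -0.23 without double-knockdown replicate 3. Its inhibitor GMNN fell with siZNF593, -0.43 (SE 0.11, adjusted p = 0.00359), and its change was 0.00 (SE 0.10, adjusted p = 0.997) with siZFX, and the difference between these siRNAs was 0.43 (SE 0.11, adjusted p = 0.00216). MCM10, a scaffold of the new fork, fell with log2 changes of -0.40, -0.77 and -0.23, and MCM8, a helicase of repair, had log2 changes of -0.02 (SE 0.07, adjusted p = 0.845) with siZFX and -0.53 (SE 0.07, adjusted p = 2.43e-06) with siZNF593.

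In DKO cells 10 of the 15 licensing genes were lower with wtZFX, and 10 with ZFX12_13, beside 19.2% and 15.7% of all genes. ORC1 moved most, from 117, 113 and 118 CPM with pCMV6 to 73.3, 74.5 and 70.6 with wtZFX and 73.0, 76.2 and 80.9 with ZFX12_13. All 6 construct libraries lay below the 3 vector libraries. The changes were -0.67 (SE 0.05, adjusted p = 1.75e-10) and -0.60 (SE 0.05, adjusted p = 2.24e-09). MCM8 went from 152, 160.4 and 154 CPM to 107, 108 and 111 and 113, 124 and 125, with changes of -0.52 (SE 0.05, adjusted p = 1.23e-08) and -0.36 (SE 0.05, adjusted p = 4.46e-06). CDC6 fell with log2 changes of -0.42 and -0.21, and MCM10 with log2 changes of -0.23 and -0.32. The most abundant licensing gene of DKO cells, MCM4, fell from 625, 611 and 613 CPM to 542, 540.0 and 537 and 537, 543 and 524, -0.19 (SE 0.04, adjusted p = 0.000978) and -0.20 (SE 0.04, adjusted p = 0.000636).

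Origin firing genes held the sharpest difference between the siRNAs. GINS1, a subunit of the GINS ring that joins the helicase, stood at 92.3, 84.1 and 85.6 CPM in siControl, 92.8, 89.2 and 99.96 with siZFX and 42.2, 45.0 and 37.5 with siZNF593. For siControl_2 it stood at 95.5, 87.8 and 94.3 and in the double knockdown at 49.1, 48.7 and 51.6. Levels with siZFX overlapped the controls, while all 6 libraries with siZNF593, alone or with siZFX, lay at or below 51.6 CPM, against 84.1 or more in every control library. The changes were 0.11 (SE 0.08, adjusted p = 0.332), -1.07 (SE 0.08, adjusted p = 5.94e-10) and -0.89 (SE 0.08, adjusted p = 7.49e-09), and siZFX differed from siZNF593 by 1.18 (SE 0.08, adjusted p = 5.02e-11), the largest such difference of the 49 genes.

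GINS4 had a like pattern, -0.18 (SE 0.10, adjusted p = 0.197) with siZFX, -1.14 (SE 0.11, adjusted p = 2.55e-08) with siZNF593 and -0.55 (SE 0.10, adjusted p = 0.000202) in the double knockdown. Its count leaves out reads in exons shared with other genes, and both stranded counts summed to 1.97 times the count used. GINS2 was lower with siZFX than with siZNF593. It stood at 79.8, 85.6 and 83.3 CPM in siControl, 47.6, 48.2 and 46.4 with siZFX and 54.4, 58.5 and 55.1 with siZNF593, changes of -0.81 (SE 0.07, adjusted p = 8.24e-09) and -0.57 (SE 0.07, adjusted p = 1.91e-06). GINS3, the remaining subunit, was called in none of the 3 knockdowns (-0.26, -0.27 and 0.21). CDC45, which completes the active helicase, went from 103, 104 and 105 CPM in siControl to 72.3, 72.2 and 67.4 with siZFX and 59.6, 60.0 and 48.6 with siZNF593, -0.56 (SE 0.08, adjusted p = 6.82e-06) and -0.89 (SE 0.08, adjusted p = 1.06e-08).

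TICRR, which links cyclin-dependent kinase to CDC45 loading, stood at 45.8, 43.2 and 42.3 CPM in siControl, 23.1, 22.5 and 23.4 with siZFX and 33.4, 29.9 and 34.8 with siZNF593. In siControl_2 it stood at 35.9, 45.0 and 45.5 and in the double knockdown at 24.9, 22.2 and 24.4. It fell in all 3 with log2 changes of -0.93 (SE 0.10, adjusted p = 1.41e-07), -0.42 (SE 0.10, adjusted p = 0.00229) and -0.82 (SE 0.10, adjusted p = 7.64e-07), more with siZFX than with siZNF593, a difference of -0.51 (SE 0.10, adjusted p = 0.000258). The kinase CDC7 rose in the double knockdown, from 48.0, 51.5 and 54.5 CPM to 69.8, 80.5 and 87.9, 0.63 (SE 0.08, adjusted p = 3.03e-06). The control sets differed, at -0.34 (SE 0.08, adjusted p = 0.00933) for CDC7, and with siControl as the control its rise was 0.29 (adjusted p = 0.00742). Its partner DBF4 fell with a log2 change of -0.22 with siZFX and -0.23 with siZNF593, and its change in the double knockdown was -0.18 (SE 0.08, adjusted p = 0.0704).

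With wtZFX, GINS2 and TICRR rose while CDC45, GINS4, CDC7 and DBF4 fell. GINS2 went from 89.3, 91.0 and 88.8 CPM with pCMV6 to 107, 105 and 106 with wtZFX and 106, 101 and 93.6 with ZFX12_13, 0.24 (SE 0.05, adjusted p = 0.000566) and 0.16 (SE 0.05, adjusted p = 0.0202). All construct libraries were above the vector libraries, but the ZFX12_13 call of GINS2 was lost in 5 of 15 alternative settings. TICRR went from 105, 105 and 111 CPM to 126, 119 and 119 with wtZFX, 0.18 (SE 0.07, adjusted p = 0.0487), and 83.8, 103 and 112 with ZFX12_13, -0.11 (SE 0.07, adjusted p = 0.261). The rise of TICRR sits at the threshold and was lost in 10 of 15 alternative settings. GINS4 fell with log2 changes of -0.32 and -0.27, CDC7 with log2 changes of -0.31 and -0.25 and DBF4 with log2 changes of -0.24 and -0.28 with wtZFX and ZFX12_13. CDC45 fell with wtZFX, at -0.19, and its change with ZFX12_13 was -0.08.

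The polymerases and primase in LN-229 were lower in 2 of 8 cases with siZFX, 5 with siZNF593 and 1 in the double knockdown, beside the shares of 17.1%, 14.6% and 20.6% of all genes. POLE, the catalytic subunit of the leading-strand polymerase, stood at 114, 105 and 118 CPM in siControl, 91.2, 93.0 and 94.8 with siZFX and 93.3, 86.5 and 97.0 with siZNF593. It was lower in all 3 knockdowns with log2 changes of -0.27, -0.28 and -0.32, and the siZFX call was lost without siControl replicate 3 (-0.23), without siZFX replicate 1 (-0.26) and with all 6 control libraries (-0.19). POLA1, catalytic subunit of the polymerase that starts each strand, fell with siZNF593, -0.68 (SE 0.11, adjusted p = 3.72e-05), and its change was -0.26 (SE 0.10, adjusted p = 0.0665) with siZFX. POLA2 fell with both single siRNAs, at -0.41 and -0.56. The lagging-strand subunits POLD1 and POLD3 were called in no knockdown.

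The primase subunits differed from each other. PRIM2, the large subunit, stood at 34.2, 32.5 and 32.5 CPM in siControl, 43.7, 40.5 and 37.6 with siZFX and 21.6, 26.1 and 21.4 with siZNF593, changes of 0.30 (SE 0.12, adjusted p = 0.0538) and -0.52 (SE 0.12, adjusted p = 0.00206). PRIM1, the catalytic subunit, stood at 10.7, 8.13 and 9.20 CPM in siControl_2 and 15.1, 14.7 and 21.7 in the double knockdown, a rise of 0.88 (SE 0.15, adjusted p = 7.1e-05). The siControl_2 libraries were themselves below siControl, which stood at 12.7, 13.1 and 14.7, a difference of -0.53 (SE 0.15, adjusted p = 0.0263). With siControl as the control the double-knockdown change was 0.35 (adjusted p = 0.06), so this call rests on the control set. Without double-knockdown replicate 3, the highest, it was 0.68 against siControl_2. PRIM1 also shares exons with 2 genes, which takes part of its reads out of the count.

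In DKO cells 7 of these 8 genes were lower with wtZFX and 5 with ZFX12_13, beside 19.2% and 15.7% of all genes. PRIM2 went from 56.1, 56.4 and 54.2 CPM with pCMV6 to 37.6, 36.8 and 39.8 with wtZFX and 45.9, 51.4 and 48.0 with ZFX12_13, -0.55 (SE 0.06, adjusted p = 1.04e-07) and -0.20 (SE 0.06, adjusted p = 0.0127). The 3 groups did not overlap. POLA1 fell from 164, 160.2 and 153 CPM to 128, 123 and 121 and 136, 137 and 128, -0.36 (SE 0.05, adjusted p = 2.22e-06) and -0.25 (SE 0.05, adjusted p = 0.000284). PRIM1 fell with wtZFX, at -0.32, and stood at 0.01 with ZFX12_13. POLE2 fell with wtZFX, at -0.36, a call lost with offsets for GC content and length. POLE was not called with either construct, at 0.11 (SE 0.06, adjusted p = 0.144) and -0.07 (SE 0.06, adjusted p = 0.374).

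At the fork, RFC3, a subunit of the clamp loader, was among the most reduced of the 49 genes in LN-229. It stood at 95.4, 97.9 and 92.7 CPM in siControl, 48.7, 49.8 and 52.5 with siZFX and 36.7, 40.4 and 37.5 with siZNF593. For siControl_2 it stood at 94.3, 94.0 and 96.6 and in the double knockdown at 50.4, 57.7 and 67.4. The control sets overlapped and every knockdown library lay far below them. The changes were -0.92 (SE 0.09, adjusted p = 2.16e-08), -1.32 (SE 0.09, adjusted p = 9.55e-11) and -0.70 (SE 0.09, adjusted p = 9.96e-07). RFC2, RFC4 and RFC5, its partners in the loader, moved less: RFC2 with log2 changes of -0.39, -0.61 and -0.29, all called, and RFC4 and RFC5 with log2 changes of -0.33 and -0.22 with siZNF593. Without double-knockdown replicate 3 the last value of RFC2 was -0.47. The call of RFC5 depends on the count used: with the larger count it was -0.13 with siZNF593 (adjusted p = 0.17) and -0.24 with siZFX (adjusted p = 0.00869).

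PCNA stood at 459.6, 489 and 448 CPM in siControl, 390.0, 390.3 and 374 with siZFX and 292, 338 and 290.2 with siZNF593, changes of -0.28 (SE 0.07, adjusted p = 0.00319) and -0.60 (SE 0.07, adjusted p = 4.87e-07). In the double knockdown its log2 change was -0.18 (SE 0.07, adjusted p = 0.0392), a call that 8 of 17 alternative settings ended. LIG1, the ligase of the lagging strand, fell with siZNF593, -0.61 (SE 0.10, adjusted p = 6.6e-05), and in the double knockdown, -0.31 (SE 0.10, adjusted p = 0.0174), the latter -0.18 (adjusted p = 0.101) without double-knockdown replicate 3. FEN1, the flap nuclease, fell with siZNF593, -0.31 (SE 0.08, adjusted p = 0.00804). Its change with siZFX was -0.21 (SE 0.08, adjusted p = 0.0535), and the difference between these siRNAs was 0.09 (SE 0.08, adjusted p = 0.414). RPA1, the large subunit of the single-strand binding protein, rose against its class. It stood at 115, 118 and 114 CPM in siControl and 149, 150.3 and 147 with siZFX, 0.36 (SE 0.07, adjusted p = 0.000257), and at 115, 117 and 114 in siControl_2 and 142, 138 and 164 in the double knockdown, 0.36 (SE 0.07, adjusted p = 0.00023). Its change with siZNF593 was -0.06 (SE 0.07, adjusted p = 0.551). RPA2, its partner, fell with both single siRNAs, at -0.29 and -0.36.

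In DKO cells 7 of the 9 fork genes were lower with wtZFX and 5 with ZFX12_13, beside 19.2% and 15.7% of all genes. RPA2 was reduced most, from 171, 169 and 164 CPM to 131, 127 and 130.1 and 149, 132 and 126, -0.38 (SE 0.05, adjusted p = 4.6e-06) and -0.31 (SE 0.06, adjusted p = 8.91e-05). LIG1 followed with -0.34 and -0.25, RFC3 with -0.25 and -0.18, and RPA1 with -0.21 and -0.14. With ZFX12_13, leaving out any of 3 libraries for RFC3 and of 4 for RPA1, one at a time, ended the call. RFC3 and RPA2 were thus lower both with siZFX in LN-229 and with wtZFX in DKO cells. PCNA was called with neither construct, at -0.13 (SE 0.06, adjusted p = 0.0612) and -0.04 (SE 0.06, adjusted p = 0.668).

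Of the chromatin assembly pair, CHAF1B, the middle subunit of the histone chaperone CAF-1, fell to a like extent in all 3 knockdowns. It stood at 20.2, 22.3 and 21.9 CPM in siControl, 10.7, 9.21 and 9.67 with siZFX and 8.67, 7.14 and 9.46 with siZNF593. In siControl_2 it stood at 23.3, 25.2 and 22.5 and in the double knockdown at 8.38, 9.99 and 7.999. The highest knockdown library stood at 10.7 CPM and the lowest control library at 20.2. The changes were -1.12 (SE 0.13, adjusted p = 2.91e-07), -1.35 (SE 0.13, adjusted p = 3.31e-08) and -1.43 (SE 0.13, adjusted p = 8.26e-09). CHAF1A, the large subunit, stood at 80.4, 74.6 and 76.2 CPM in siControl, 59.5, 63.0 and 55.5 with siZFX and 53.7, 47.5 and 44.1 with siZNF593, and fell with log2 changes of -0.38 (SE 0.08, adjusted p = 0.000853), -0.67 (SE 0.08, adjusted p = 1.29e-06) and, in the double knockdown, -0.60 (SE 0.08, adjusted p = 3.69e-06). With ZFX added to DKO cells CHAF1B went from 47.2, 50.3 and 49.9 CPM with pCMV6 to 72.4, 69.3 and 72.7 with wtZFX and 67.9, 60.9 and 56.1 with ZFX12_13. These are rises of 0.54 (SE 0.06, adjusted p = 1.93e-07) and 0.33 (SE 0.06, adjusted p = 0.000296). CHAF1A had -0.10 (SE 0.05, adjusted p = 0.0989) with wtZFX and -0.15 (SE 0.05, adjusted p = 0.013) with ZFX12_13.

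The genes of nucleotide supply were lower in 3 of 3 cases with siZNF593, in 2 with siZFX and in none with the double knockdown. Of all genes 14.6%, 17.1% and 20.6% were lower. RRM1, the large subunit of ribonucleotide reductase, stood at 197, 191 and 183 CPM in siControl, 151, 149 and 150.1 with siZFX and 146, 175 and 164 with siZNF593, changes of -0.35 (SE 0.09, adjusted p = 0.00317) and -0.24 (SE 0.09, adjusted p = 0.0431). The call with siZNF593 was ended by 9 of 16 alternative settings. RRM2, the small subunit, stood at 181, 182 and 171 CPM in siControl, 178, 167 and 178 with siZFX and 120.04, 142 and 124 with siZNF593, changes of -0.03 (SE 0.08, adjusted p = 0.818) with siZFX and -0.47 (SE 0.08, adjusted p = 0.000143) with siZNF593. In the double knockdown these genes had 0.07 (SE 0.09, adjusted p = 0.563) and 0.18 (SE 0.08, adjusted p = 0.0856), while RRM2 was lower in siControl_2 than in siControl, -0.35 (SE 0.08, adjusted p = 0.00558). TYMS, thymidylate synthase, fell with log2 changes of -0.34 and -0.55 with the single siRNAs, on a count that leaves out reads in shared exons. Its call with siZFX was ended by leaving out any of 5 libraries, one at a time. In DKO cells RRM2 fell with wtZFX, at -0.21, and RRM1 with a log2 change of -0.12, the latter lost in 11 of 15 alternative settings and turned to 0.012 by offsets for GC content and length.

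Among the G1/S regulators CCNE1, cyclin E1, had the largest change of the 49 genes with siZFX and in the double knockdown. It stood at 13.1, 13.5 and 11.4 CPM in siControl, 5.14, 6.02 and 3.99 with siZFX and 10.6, 8.95 and 7.38 with siZNF593. For siControl_2 it stood at 16.1, 12.4 and 14.2 and in the double knockdown at 4.79, 5.49 and 2.86. Libraries with siZFX, alone or combined, lay at 6.02 CPM or less, and those with siZNF593 alone lay between them and the controls. The changes were -1.33 (SE 0.20, adjusted p = 1.74e-05), -0.50 (SE 0.19, adjusted p = 0.0618) and -1.70 (SE 0.20, adjusted p = 6.21e-07). In DKO cells CCNE1 went from 25.9, 27.5 and 25.9 CPM with pCMV6 to 42.5, 39.4 and 39.5 with wtZFX and 49.9, 34.9 and 41.0 with ZFX12_13, rises of 0.61 (SE 0.09, adjusted p = 8.83e-06) and 0.66 (SE 0.09, adjusted p = 4.81e-06). CCNE2, cyclin E2, was called in none of these 5 comparisons.

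E2F2 and E2F1, activator E2Fs, behaved differently from each other. E2F2 stood at 32.6, 32.7 and 33.3 CPM in siControl, 13.7, 13.5 and 14.4 with siZFX and 19.9, 17.5 and 20.7 with siZNF593. In siControl_2 it stood at 31.4, 33.3 and 27.5 and in the double knockdown at 15.8, 17.1 and 11.9. No knockdown library overlapped a control library, and the changes were -1.25 (SE 0.12, adjusted p = 3.63e-08), -0.76 (SE 0.12, adjusted p = 3.48e-05) and -1.04 (SE 0.12, adjusted p = 4.1e-07). In DKO cells E2F2 stood at 95.6, 98.8 and 99.5 CPM with pCMV6, 95.7, 91.7 and 94.8 with wtZFX and 94.8, 98.9 and 95.7 with ZFX12_13, -0.06 (SE 0.05, adjusted p = 0.357) and -0.02 (SE 0.05, adjusted p = 0.772). E2F1 was called in no knockdown, at 0.06 (SE 0.08, adjusted p = 0.626), -0.11 (SE 0.08, adjusted p = 0.341) and -0.10 (SE 0.08, adjusted p = 0.344). The control sets differed, at -0.27 (SE 0.08, adjusted p = 0.0357) for E2F1, and with siControl as the control its double-knockdown change was -0.38 (adjusted p = 0.000787). In DKO cells it stood at 141, 134 and 139 CPM with pCMV6, 189.5, 184 and 194 with wtZFX and 119.95, 117 and 119 with ZFX12_13. It rose with wtZFX, 0.45 (SE 0.05, adjusted p = 3.02e-08), and fell with ZFX12_13, -0.22 (SE 0.05, adjusted p = 0.000782), and none of the 3 groups overlapped.

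**Figure D4:**
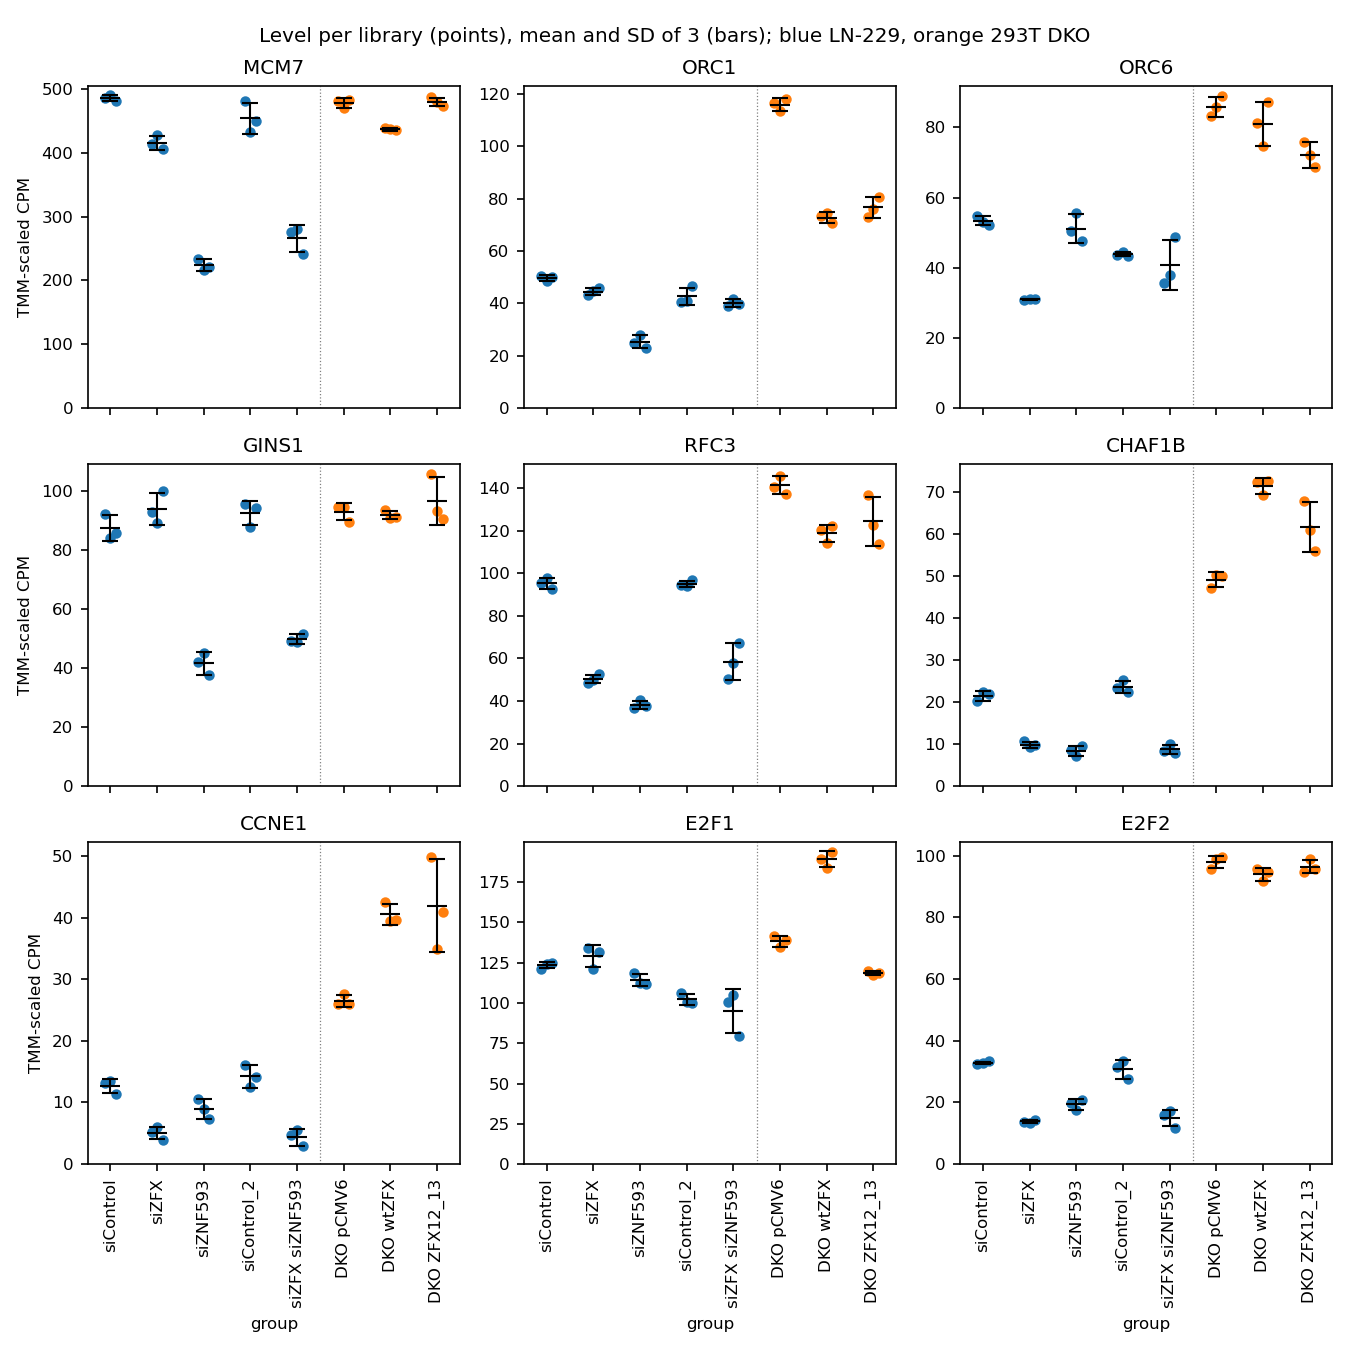
TMM-scaled CPM of 9 of the genes in each of the 24 libraries (points; blue LN-229, orange DKO cells), with mean and SD of 3 as bars, each axis from 0. In LN-229 ORC1 is lowest with siZNF593 and ORC6 with siZFX, GINS1 is low in both groups with siZNF593, and E2F1 is highest with wtZFX and below pCMV6 with ZFX12_13.

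Setting the single knockdowns against each other gives their difference directly, without siControl. Of the 49 genes 23 were higher with siZFX than with siZNF593 and 5 lower, against 19.8% and 20.7% of all genes, with a median of 0.23 (-0.03 over all genes). After GINS1 the largest differences were GINS4 at 0.96, MCM7 at 0.89, PRIM2 at 0.82, ORC1 at 0.81, MCM4 at 0.76 and MCM6 at 0.63, all higher with siZFX. The 5 genes lower with siZFX were CCNE1 at -0.83 (SE 0.21, adjusted p = 0.00221), ORC6 at -0.72 (SE 0.10, adjusted p = 3.04e-06), TICRR at -0.51, E2F2 at -0.48 and GINS2 at -0.24. By role, 11 of 15 licensing genes were higher with siZFX, against 0 of 4 G1/S regulators and 19.8% of all genes.

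The double knockdown was compared with each single knockdown as a difference of effects, each effect against its own control set. Against siZFX, 6 of the 49 genes had a higher effect and 2 a lower one, against 8.76% and 8.97% of all genes, shares near the background. The lower ones were GINS1, -1.0 (SE 0.11, adjusted p = 6.17e-07), and MCM7, -0.55 (SE 0.09, adjusted p = 0.000189). ORC6, 0.68 (SE 0.14, adjusted p = 0.00129), and RRM1, 0.41 (SE 0.12, adjusted p = 0.0192), were among the higher ones. These 4 kept their call and direction when siControl served both effects, an alternative chosen after the data were seen, at -0.92, -0.64, 0.40 and 0.28. The other 4, PRIM1, CDC7, MCM3 and GINS2, did not keep their call then, and the split of all 49 turned to 2 higher and 11 lower. Against siZNF593, 22 had a higher effect and 1 a lower one, against 7.97% and 8.6% of all genes, with a median difference of 0.32. With siControl for both effects the counts were 24 and 5 and the median 0.20. Without double-knockdown replicate 3 they were 26 and 2, and against siZFX 7 and 3. ORC1, 0.88 (SE 0.12, adjusted p = 3.08e-05), CDC6, 0.68 (SE 0.10, adjusted p = 6.32e-05), and MCM8, 0.67 (SE 0.09, adjusted p = 3.35e-05), were thus less reduced in the double knockdown than with siZNF593 alone. CCNE1 was the one gene more reduced, -1.20 (SE 0.28, adjusted p = 0.00424). As given above, the double knockdown kept more ZFX RNA than siZFX alone, and what part this had in the differences was not tested.

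Each single knockdown and the double knockdown have separate libraries and separate controls. Of the 24 genes lower with siZFX, 18 (75%) were also lower in the double knockdown, which is 81.8% of its 22. Over all tested genes these shares were 57.9% and 48.2%. Of the 37 lower with siZNF593, 21 (56.8%) were lower in the double knockdown, 95.5% of its 22, against 56.7% and 40.2% over all tested genes. The single gene lower in the double knockdown and not with siZNF593 was CCNE1.

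Knockdown of ZFX in LN-229 and ZFX added to DKO cells share no library. Of the 24 genes lower with siZFX, 4 (16.7%) were higher with wtZFX, namely GINS2, TICRR, CHAF1B and CCNE1, which is 80% of the 5 genes higher with wtZFX. The fifth was E2F1. Over all genes tested in both lines these shares were 49.2% and 38.6%. Another 11 of the 24 (45.8%) were lower with wtZFX as well, which is 36.7% of its 30: MCM5, MCM7, MCM10, CDT1, CDC45, DBF4, POLA2, RFC2, RFC3, RPA2 and RRM1. Over all genes tested in both lines these shares were 9.89% and 8.14%. The remaining 9 were not called with wtZFX. Among the 11, the wtZFX calls of CDT1, MCM5, MCM7 and RRM1 and the siZFX calls of CDT1, DBF4, POLA2 and RPA2 were each lost on leaving out some single libraries.

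**Figure D5:**
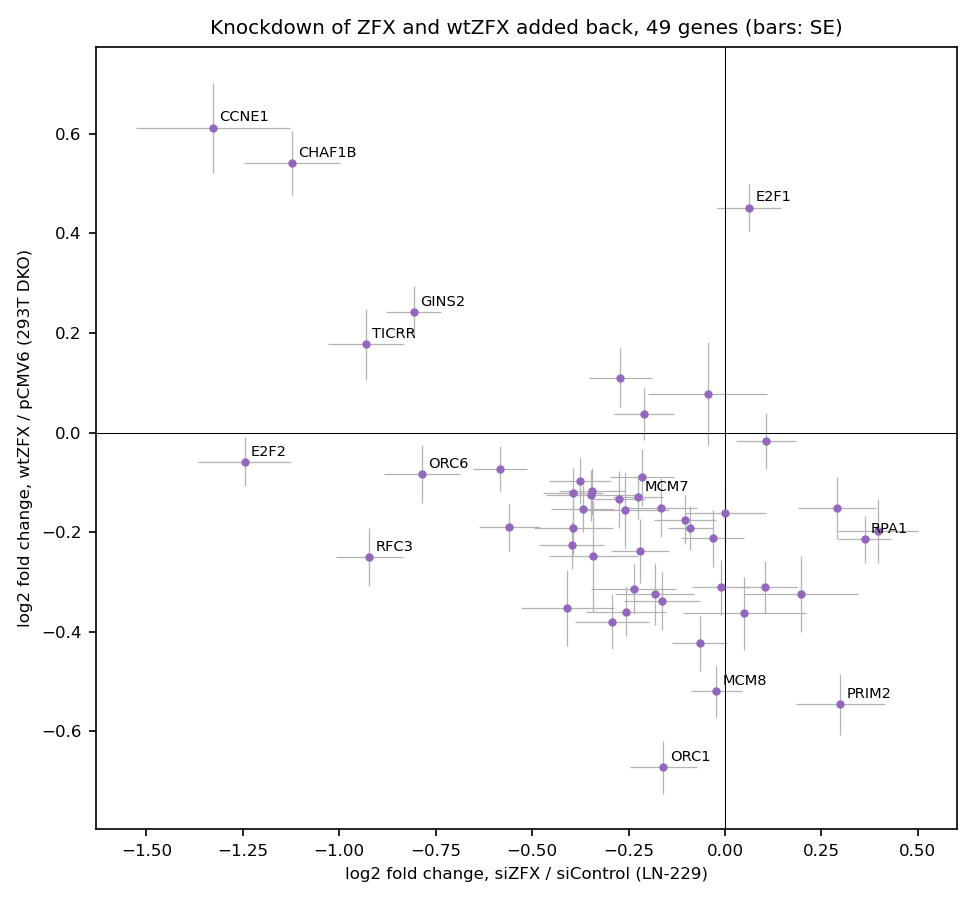
Log2 fold change of the 49 genes with siZFX in LN-229 (x axis) and with wtZFX in DKO cells (y axis), bars the SE of each. CCNE1, CHAF1B, GINS2 and TICRR lie at the upper left, and most other genes lie below 0 on the y axis at small changes on the x axis.

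The constructs were also compared directly, which does not use pCMV6. With wtZFX 4 of the 49 genes were higher than with ZFX12_13 and 6 lower, against 10.6% and 9.73% of all genes, shares that are near the background. E2F1 stood out with 0.67 (SE 0.05, adjusted p = 3.13e-10). The other 3 higher genes were TICRR, 0.29 (SE 0.07, adjusted p = 0.00594), CHAF1B, 0.21 (SE 0.06, adjusted p = 0.0169), and POLE, 0.18 (SE 0.06, adjusted p = 0.0313), of which CHAF1B was lost in 4 and POLE in 6 of 15 alternative settings. The lower ones were PRIM2, -0.35 (SE 0.06, adjusted p = 0.000239), PRIM1, -0.33 (SE 0.08, adjusted p = 0.00256), CDC6, -0.21 (SE 0.06, adjusted p = 0.0084), and, at smaller size, MCM8, MCM7 and RRM1. Of these CDC6 was lost in 1 of the 15 settings, MCM8 in 8, MCM7 in 6 and RRM1 in 6. Without ZFX12_13 replicate 1 the differences of TICRR and POLE were 0.18 and 0.09. For CCNE1 the difference was -0.05 (SE 0.09, adjusted p = 0.756).

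A wider list of 56 other replication and RB-E2F genes, also chosen with earlier results of these data known, was counted in the same way. Of its 55 tested members in LN-229, 28 were lower and 5 higher with siZFX, 28 and 2 with siZNF593, and 21 and 7 in the double knockdown. The shares of all genes, lower and higher, were 17.1% and 13.8%, 14.6% and 12.2%, and 20.6% and 17.6% in that order. With siZFX the largest changes were those of SKP2, which targets the inhibitor p27 for destruction, at -0.83 (SE 0.10, adjusted p = 8.47e-07), the helicase RECQL4 at -0.72 (SE 0.20, adjusted p = 0.0166), CDC25A, the phosphatase that activates CDK2, at -0.65 (SE 0.10, adjusted p = 2.52e-05), and CDKN1B, which encodes p27, at 0.64 (SE 0.07, adjusted p = 1.2e-07). With siZNF593 UHRF1, a reader of hemimethylated DNA, fell with a log2 change of -1.09 (SE 0.07, adjusted p = 8.31e-11), thymidine kinase TK1 with a log2 change of -0.95 (SE 0.07, adjusted p = 1.05e-09) and cyclin D1, CCND1 with a log2 change of -0.72 (SE 0.06, adjusted p = 6.07e-09). CCND1 differed between the single siRNAs by 1.20 (SE 0.06, adjusted p = 5.24e-13). In DKO cells 23 of 56 were lower and 7 higher with wtZFX, and 21 lower and 3 higher with ZFX12_13. The shares of all genes there were 19.2% and 23.2%, and 15.7% and 20.9%. The repressor E2F8 fell with wtZFX, -0.72 (SE 0.08, adjusted p = 8.2e-08), and RRM2B, the ribonucleotide reductase subunit induced by p53, rose with wtZFX, 0.57 (SE 0.07, adjusted p = 5.38e-07), and with ZFX12_13, 0.65 (SE 0.07, adjusted p = 1.24e-07).

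Genes of G2 and mitosis, a list of 20 for the later part of the cycle, were lower as well: 9 with siZFX, 15 with siZNF593 and 13 in the double knockdown, with 0, 0 and 1 higher. This list too was chosen with earlier results of these data known. Of all genes tested, 17.1%, 14.6% and 20.6% were lower and 13.8%, 12.2% and 17.6% higher. Medians over the 20 genes were -0.18, -0.36 and -0.29, against 0.02, 0.02 and 0.01 over all genes. BIRC5, which encodes survivin, fell with a log2 change of -1.01 (SE 0.06, adjusted p = 4.25e-11) with siZNF593 and -0.75 (SE 0.06, adjusted p = 4.84e-09) in the double knockdown, and MKI67, the Ki-67 antigen of cycling cells, fell with a log2 change of -0.55 (SE 0.07, adjusted p = 4.79e-06) with siZFX. In DKO cells 8 of 20 were lower with wtZFX and 7 with ZFX12_13, against 19.2% and 15.7% of all genes. Lower levels were thus not limited to genes of S phase, and a change in the share of cycling cells was not tested.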

How the data were processed

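RNA was extracted with Trizol and libraries were made with a NEBNext Ultra II kit, per the labels' protocols. The authors deposited raw read counts per gene for each library, in the layout that STAR writes, with 1 column without regard to strand and 1 for each strand. STAR, HTSeq, DESeq2 and GRCh38 are named in the submitters' processing notes, with no version or role. The column without strand was used, and rows that name no gene were left out (reads outside genes, ambiguous, unmapped or multimapping). Genes with low counts were removed by edgeR's filterByExpr. Each cell line was fitted once over all its groups with edgeR 4.0.16 in R 4.3.3 (TMM factors, robust quasi-likelihood test) without a replicate term, and p-values were adjusted over all genes. The double knockdown was set against siControl_2, following the sample names. Genes were named where they were among the largest called changes or led their role. The scripts were tested on simulated data. The 49 genes and the lists were chosen with earlier results of these data known. The labels call the libraries biological replicates and do not say that they are separate cultures, so p-values measure the spread between these libraries. Alternatives included DESeq2 1.42.0, upper-quartile factors, GC and length offsets, other filters and each library left out.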

Additional observations from a re-analysis of the deposited data

Results flagged for a closer look

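The effect of the double knockdown differed from that of siZFX for 8 of the 49 genes, by a test of the difference of effects in edgeR's quasi-likelihood fit. It was higher for 6 and lower for 2, against 8.76% and 8.97% of all genes, shares near the background. The log2 differences were -1.0 for GINS1, 0.68 for PRIM1, 0.68 for ORC6, -0.55 for MCM7, 0.53 for CDC7, 0.41 for RRM1, 0.39 for MCM3 and 0.30 for GINS2. The 2 effects use different control sets. With siControl for both, PRIM1 (0.15), CDC7 (0.19), MCM3 (0.14) and GINS2 (0.07) were not called. The split of the 49 genes was then 2 higher and 11 lower.

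The effect of the double knockdown differed from that of siZNF593 for 23 genes. It was higher for 22 and lower for 1, against 7.97% and 8.6% of all genes. The largest differences were -1.20 for CCNE1, 0.98 for PRIM1, 0.88 for ORC1, 0.80 for PRIM2, 0.74 for POLE2, 0.69 for CDC7, 0.68 for CDC6, 0.67 for MCM8, 0.65 for RRM2 and 0.64 for MCM6. With siControl for both effects they were, in the same order, -1.04, 0.45, 0.66, 0.46, 0.68, 0.35, 0.54, 0.53, 0.29 and 0.47, all still called. Without double-knockdown replicate 3 the difference of POLE2 was 0.58 (adjusted p = 0.0529).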

How the results depend on the processing

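Counting calls of at least 1.5-fold left 7 genes with siZFX, 19 with siZNF593, 12 in the double knockdown, 0 between the control sets (edgeR; 21 at an unadjusted p under 0.05, and 9 called by DESeq2 at any fold), 9 between the single siRNAs, 3 and 15 for the double knockdown minus siZFX and minus siZNF593, 2 with wtZFX, 2 with ZFX12_13 and 1 between the constructs. The counts that follow are of calls at any fold. Between the control sets it was 9 in the main fit, 21 with GC and length offsets, 23 with only the groups compared and 2 to 5 with 1 library left out. The count for the double knockdown minus siZFX was 8 in the main fit. It was 13 with GC and length offsets and 13 with siControl for both effects, the latter chosen after seeing the data. Between the constructs it was 10 in the main fit, 6 with only the groups compared and 5 to 13 with 1 library left out. The cause was not tested. Values that turned were E2F1 in the double knockdown (0.24), RRM1 with wtZFX (0.012) and MCM7 with ZFX12_13 (-0.11), all with GC and length offsets, and E2F1 for the double knockdown minus siZNF593 (-0.26) with siControl for both effects. With a replicate block 28, 39 and 27 genes were called with siZFX, siZNF593 and both, and 33 and 28 with wtZFX and ZFX12_13. Same-numbered libraries did not deviate together (correlations of -0.0896 to 0.0969 in LN-229 and -0.0465 to 0.043 in DKO cells). These values show no pairing by number, but with 3 libraries per group they cannot exclude one.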
